A study of Homo sapiens with 4 samples.

Results

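AL139099.5 and the genes of the signal recognition particle were described in RNA immunoprecipitation sequencing (RIP-seq) of HCCLM3, a human hepatocellular carcinoma cell line. The 9 genes, out of 13300 gene names listed, were AL139099.5, the 6 particle proteins SRP9, SRP14, SRP19, SRP54, SRP68 and SRP72, and the receptor subunits SRPRA and SRPRB. AL139099.5 was chosen by its FPKM value, which was the highest of all listed transcripts in every library, and its share of each group was also known when it was chosen. Its levels are therefore given without a test. The other 8 genes were taken by name, also with earlier results of these data known. Together the 9 genes had 21 of the 34975 listed transcripts, 1 for AL139099.5 and 20 for the others.

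In RIP-seq, an antibody is added to a cell lysate and the RNAs that come down with its target are sequenced. An antibody against endogenous KIAA1429, a scaffold subunit of the m6A RNA methyltransferase complex, gave the 2 KIAA1429 RIP libraries, and normal IgG gave the 2 IgG RIP libraries that serve as background. Both groups were precipitated from the same cell line, with no other agent or genotype named in the labels, and poly(A) RNA was selected from the precipitates before sequencing. The values were FPKM, in which the fragments of a transcript are scaled by its length and by the mapped fragments of the library. Counts were not used here, so sequencing depth is unknown and no counting interval can be given. No input RNA was analysed here, so the amount of an RNA in the cells and its recovery with the antibody cannot be told apart. Nothing in the labels says that the replicates were separate cultures, and p-values then measure only the spread between these libraries, which may be technical.

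The signal recognition particle binds the signal peptide of a nascent secretory or membrane protein and brings the ribosome to the endoplasmic reticulum. It is built on the 7SL RNA, a transcript of RNA polymerase III that, unlike an mRNA, has no long poly(A) tail. SRP9 and SRP14 bind the Alu domain of 7SL and slow elongation, while SRP19, SRP54, SRP68 and SRP72 form the S domain, in which SRP54 recognises the signal peptide. At the membrane the particle docks on the receptor of SRPRA and SRPRB, and the chain passes into the Sec61 translocon. Hepatocytes and many hepatoma cells secrete large amounts of plasma proteins through this route.

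AL139099.5 (ENSG00000283029.1_3) was listed with 1 transcript of 300 bases at chr14:50053297-50053596 on the plus strand of GRCh37. The interval lay inside the RPS29 gene, which is on the minus strand, in an intron of the transcript RPS29-206 and without overlap of an RPS29 exon. Read from the genome, the 300 bases matched the 7SL genes. Of 297 bases aligned to RN7SL2, 293 were identical (98.7%), and of 292 aligned to RN7SL3, 287 were identical (98.3%). Over all 300 bases, the identical share was 97.7% for RN7SL2 and 95.7% for RN7SL3. For the other 844 entries of at least 100 bases named RN7SL copies or pseudogenes, its median was 75% and its maximum 89% (RN7SL300P). Some of these entries matched closely over a part only, such as RN7SL5P with 234 of 235 aligned bases identical (99.6%). In RefSeq, the 7SL gene RN7SL1 overlaps RPS29 and has LRR1 as the next gene on its right, and in the files AL139099.5 also lies within RPS29 and to the left of LRR1. The left neighbour of RN7SL1 in RefSeq, LOC107984701, is not the one in the files, which is RPS29. No transcript named RN7SL1, RN7SL2 or RN7SL3 was listed. By sequence and by its place in RPS29 beside LRR1, the transcript with the highest value in each library was therefore at a 7SL gene.

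The sequences below show the 5′ end of AL139099.5, where the Alu domain of a 7SL RNA begins, and the window that holds its GGAC motif, with capitals at that motif.
AL139099.5 5′ end, chr14:50053297-50053326: cgccgggcgcggtggcgcgtgcctgtagtc
AL139099.5 bases 143 to 172, chr14:50053439-50053468: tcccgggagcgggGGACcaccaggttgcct
How far a fragment can be assigned to 1 copy was read from windows of the sequence. Of the 251 windows of 50 bases in AL139099.5, 212 (84.5%) occurred elsewhere in GRCh37, at up to 6 other sites. Of the 201 windows of 100 bases, 149 (74.1%) did, at up to 3 other sites, whereas the whole sequence occurred at this locus alone. The value of AL139099.5 is thus uncertain to the extent that fragments of other 7SL copies were assigned to it, and the treatment of fragments with several matches is not given in the sources used here.

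The 300 bases had a GC content of 63%. GGAC, the core of the motif at which m6A is placed in mRNA, occurred 1 time on the strand of the transcript, at base 156, and 3 times on the other strand. On the transcript strand, 76.2% of the first 300 bases of 33587 listed transcripts also held GGAC, so its presence did not set AL139099.5 apart. The longest run of A was 4 bases, and 51.2% of those windows had a run at least as long.

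AL139099.5 was listed at 9598 and 9990 FPKM with IgG, and with the KIAA1429 antibody at 18011 and 19729 FPKM. Both KIAA1429 RIP values lay above both IgG RIP values, and the gap between the groups was wider than the spread in either. The group means were 9794 ± 277 and 18870 ± 1215 FPKM (SD, n = 2 each), a 1.93-fold ratio or 0.95 ± 0.10 on the log2 scale (error from the 2 SDs of the log2 values). The same-numbered libraries gave log2 ratios of 0.91 and 0.98. Among the 23375 transcripts that passed a filter on low values, 15.2% had both KIAA1429 RIP values above both IgG RIP values and 14.5% had both below, and AL139099.5 was chosen with its pattern known, so nothing is read from that share.

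The rank of AL139099.5 was the same in all 4 libraries, but its lead was not. The next value was that of RMRP, the RNA of the ribonuclease MRP, in every library, at 5003 and 9230 FPKM with IgG and at 5349 and 5049 FPKM with the KIAA1429 antibody. AL139099.5 stood at 1.92 and 1.08 times RMRP in IgG RIP and at 3.37 and 3.91 times in KIAA1429 RIP. The small lead in IgG RIP replicate 2 went with the high RMRP value there, since the AL139099.5 values of the 2 IgG libraries were close. MT-CO1 and MT-CO3, mitochondrial genes of cytochrome c oxidase, and FTL, the ferritin light chain, followed with 4-library means of 3855, 3113 and 2808 FPKM.

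**Figure D1:**
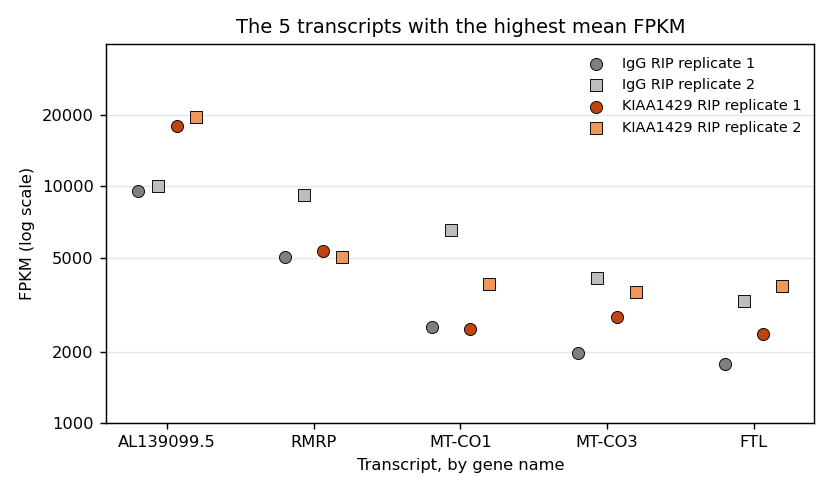
FPKM (log scale) of the 5 transcripts with the highest 4-library mean, 1 point per library, circles for replicate 1 and squares for replicate 2. The 2 KIAA1429 RIP points of AL139099.5 lie at 18011 and 19729 FPKM, above its IgG RIP points, whereas the groups overlap for RMRP, MT-CO1, MT-CO3 and FTL.

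RMRP lacked the separation of groups listed for AL139099.5. Its groups overlapped, with a log2 ratio of group means of -0.45, and the same-numbered libraries gave 0.096 and -0.87. TERC, the RNA template of telomerase, was listed at 36.2 and 114 FPKM with IgG and at 38.0 and 52.9 FPKM with the KIAA1429 antibody, also with overlap. RN7SK, RPPH1, SCARNA2, VTRNA1-1 and BCYRN1, other short noncoding RNAs, were not listed by these names. RMRP, also a transcript of RNA polymerase III, was thus the only other RNA of its class that was listed under the names searched.

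The share of AL139099.5 depended on the quantity it was taken of. Of the summed FPKM it took 3.25% and 3.17% with IgG, and 5.34% and 5.80% with the KIAA1429 antibody. FPKM divides by length, and at 300 bases a transcript has a high FPKM from few fragments. Multiplying FPKM by length gave a share of mapped fragments of 0.288% and 0.30% with IgG, and of 0.540% and 0.592% with the KIAA1429 antibody. This assumes that the authors divided by the full transcript length. The KIAA1429 RIP shares of the FPKM sum lay above the IgG RIP shares. The share of mapped fragments is FPKM times a fixed length, so its order is that of the FPKM values by construction.

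**Figure D2:**
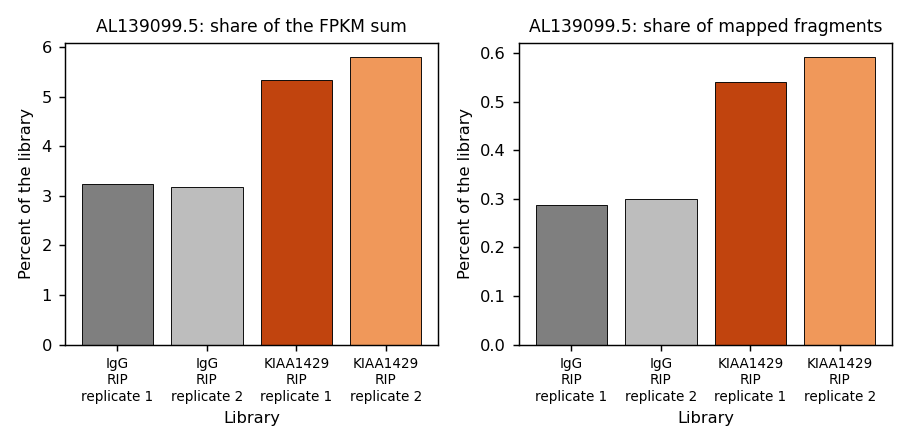
Share of AL139099.5 in each library in percent, of the FPKM sum (left) and of mapped fragments, as FPKM times length (right), 1 bar per library. The left bars run from 3.17% to 5.80% and the right bars from 0.288% to 0.592%, with both KIAA1429 RIP bars higher in each panel. The right bars follow the FPKM values by construction.

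The effect of AL139099.5 on other values followed the same distinction. Leaving its fragments out of the mapped total would raise every other FPKM by 0.0042 and 0.0043 (log2) in IgG RIP and by 0.0078 and 0.0086 in KIAA1429 RIP. The difference between group means of this rise was 0.0039, so the deposited values of the other genes hardly depended on it. When values are instead expressed per FPKM sum, leaving it out raises them by 0.048 and 0.046 in IgG RIP and by 0.079 and 0.086 in KIAA1429 RIP, with a difference of 0.036. Scaling all libraries to the same FPKM sum moved the median log2 fold change of all gene totals by -0.13, and by -0.10 when AL139099.5 was left out of the sum.

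Around the locus, RPS29-201, the main mRNA of a small ribosomal subunit protein and 203 bases away on the opposite strand, was listed at 361 and 669 FPKM with IgG and at 918 and 895 FPKM with the KIAA1429 antibody. Its groups did not overlap (log2 ratio 0.82). Over all transcripts tested, 15.2% were higher and 14.5% lower in KIAA1429 RIP without overlap. RPS29-206, whose intron holds AL139099.5, was listed at 6.49 FPKM in KIAA1429 RIP replicate 1 and at 0 in the other libraries. LRR1-201 was listed at 6.29 and 2.68 FPKM in IgG RIP against 0 and 1.07 FPKM, and LRR1-202 of the same gene at 0 in both IgG RIP libraries against 8.23 and 3.36 FPKM. RPL36AL-201, another ribosomal protein mRNA, had non-overlapping groups (92.2 and 90.8 against 203 and 161 FPKM), while those of MGAT2-201, DNAAF2-201 and RPS29-202 overlapped. Whether the counting used strand is not given in the sources used here, and reads from AL139099.5 and from unspliced RPS29 RNA can then not be told apart.

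The transcripts most like AL139099.5 in their pattern over the 4 libraries were much lower in level. By Euclidean distance of the centred log2(FPKM + 1) values, among the 8869 transcripts whose mean was 5 FPKM or more, they were MRPL34-201 (0.058), MDK-203 (0.107), TIMP2-204 (0.107), RAB11B-201 (0.12) and OST4-201 (0.128). MRPL34-201, of a mitochondrial ribosomal protein, was listed at 8.39 and 8.34 FPKM with IgG and at 16.0 and 18.3 FPKM with the KIAA1429 antibody. OST4-201, of an oligosaccharyltransferase subunit, was listed at 8.04 and 8.66 against 17.7 and 17.2 FPKM. The total of the 3 listed OST4 transcripts was 73.8 and 138 against 118 and 159 FPKM, with overlapping groups. The likeness rests on 4 values per transcript.

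The mRNAs of the particle proteins were far lower than AL139099.5. The 6 genes SRP9, SRP14, SRP19, SRP54, SRP68 and SRP72 summed to 161 and 116 FPKM with IgG and to 189 and 158 FPKM with the KIAA1429 antibody. AL139099.5 stood at 59.6 and 86.5 times this sum in IgG RIP and at 95.3 and 125 times in KIAA1429 RIP. A ratio of RNA levels per length says nothing of the ratio of particle parts, since 7SL acts as RNA and the others through their proteins.

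All 8 protein genes passed the filter of a 4-library mean of 1 FPKM, and their transcripts were summed to gene totals for a test with limma on log2(FPKM + 1). None was called at an adjusted p under 0.05 and a log2 fold change beyond 1 (0 of 8, against 0.0% called in either direction among 11361 gene totals), and none had an unadjusted p under 0.05. With an unadjusted p under 0.05 and a log2 fold change beyond 1, the shares of all gene totals were 2.34% higher and 1.19% lower. The adjusted p of the 8 genes lay between 0.997 and 0.998 by limma with Benjamini-Hochberg adjustment over all gene totals. Over all gene totals the lowest adjusted p was 0.515, and 522 had an unadjusted p under 0.05. The median log2 fold change of the 8 genes was 0.28, against 0.02 over all gene totals, and 5 of 8 were above 0, against 51.4% of all. Without IgG RIP replicate 2 that median was 0.03, and it was 0.39 without IgG RIP replicate 1. Fold changes on this scale understate those of low genes.

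SRP9 (chr1:225965515-225978168, plus strand), which binds the Alu domain of 7SL with SRP14, was listed at 53.4 and 29.6 FPKM with IgG and at 72.6 and 49.5 FPKM with the KIAA1429 antibody. The groups overlapped, and within each the first replicate was the higher. Its log2 fold change of 0.58 (95% interval -0.33 to 1.49) was the highest of the 8 genes with all libraries. It was 0.16 without IgG RIP replicate 2, 0.99 without IgG RIP replicate 1 and 0.31 without KIAA1429 RIP replicate 1, and SRP14 was higher in the first and last of these (0.20 and 0.63). SRP14 (chr15:40327940-40331389, minus strand), its partner, was listed at 34.4 and 26.7 FPKM with IgG and at 33.3 and 47.6 FPKM with the KIAA1429 antibody. The group means were 30.6 ± 5.47 and 40.5 ± 10.1 FPKM (SD, n = 2 each), and the log2 fold change was 0.38 (-0.39 to 1.16). Only KIAA1429 RIP replicate 2 of SRP14 stood above both IgG RIP libraries.

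SRP72 (chr4:57333081-57369273, plus strand), which with SRP68 forms the largest protein unit of the particle, was the only one of the 8 genes whose groups did not overlap. It was listed at 18.1 and 18.8 FPKM with IgG and at 23 and 21.3 FPKM with the KIAA1429 antibody. Such non-overlap in this direction was seen in 16.6% of all gene totals, and in the other direction in 15.2%, so 1 of 8 is near the background. Its log2 fold change was 0.25 (95% interval -0.48 to 0.98). SRP68 (chr17:74034856-74068734, minus strand) was listed at 28.1 and 23.8 FPKM with IgG and at 34.0 and 19.2 FPKM with the KIAA1429 antibody. The 2 KIAA1429 RIP libraries enclosed both IgG RIP values of SRP68, and the log2 fold change was -0.02 (-0.89 to 0.86).

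SRP54 (chr14:35451163-35498773, plus strand), the GTPase that reads the signal peptide, was listed at 21.9 and 8.32 FPKM with IgG and at 18.0 and 16.2 FPKM with the KIAA1429 antibody. The 2 IgG RIP libraries enclosed both KIAA1429 RIP values, and the log2 fold change was 0.31 (95% interval -0.82 to 1.44). Without IgG RIP replicate 2 it was -0.34. SRP19 (chr5:112196919-112205485, plus strand), which helps SRP54 to load on 7SL, had the lowest level, at 5.26 and 8.26 FPKM with IgG and at 7.95 and 4.34 FPKM with the KIAA1429 antibody. The higher library of SRP19 was the second with IgG and the first with the KIAA1429 antibody, and the log2 fold change was -0.14 (-1.27 to 0.99).

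Of the receptor, SRPRA (chr11:126132814-126138854, minus strand), the subunit that meets SRP54, was listed at 17.3 and 7.96 FPKM with IgG and at 19.3 and 13.5 FPKM with the KIAA1429 antibody. The groups overlapped, and the log2 fold change was 0.43 (95% interval -0.64 to 1.49). SRPRB (chr3:133502877-133540336, plus strand), its membrane anchor, was listed at 12.2 and 8.56 FPKM with IgG and at 8.39 and 11.2 FPKM with the KIAA1429 antibody, with a log2 fold change of -0.07 (-1.0 to 0.86). The intervals of all 8 genes reached from below 0 to at least 0.86, so a rise of the size listed for AL139099.5 in FPKM is inside the interval of every gene but SRP68 and SRPRB.

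**Figure D3:**
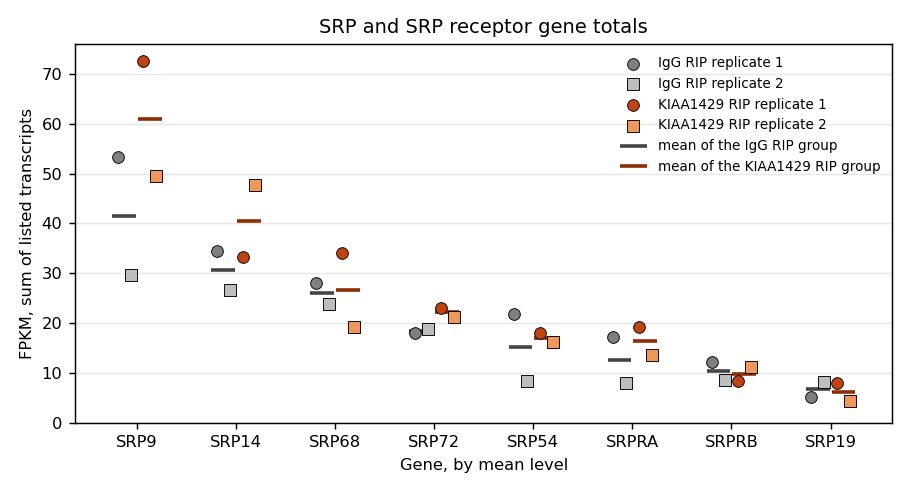
Summed FPKM of the 8 SRP and SRP receptor genes, ordered by 4-library mean, 1 point per library and a line at each group mean. The groups overlap for every gene but SRP72, and the means fall from 51.3 FPKM for SRP9 to 6.45 FPKM for SRP19.

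The order of levels by 4-library mean was SRP9 (51.3 FPKM), SRP14 (35.5), SRP68 (26.3), SRP72 (20.3), SRP54 (16.1), SRPRA (14.5), SRPRB (10.1) and SRP19 (6.45). The 2 Alu domain proteins were thus the highest. Neighbours in this order overlapped in their ranges over the libraries, except SRPRB and SRP19, the last pair. SRP9 was nevertheless above SRP14 in 4 of 4 libraries, and each of the next 5 genes was above its successor in 3 of 4.

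Below the gene totals, the division between transcripts of a gene was unstable. Of the 20 transcripts, 9 were listed at 0 in at least 1 library (45%, against 55.5% of all listed transcripts), and 18 of the 80 values were 0. SRP54-201 was listed at 21.9 and 0 FPKM with IgG and at 18.0 and 16.2 FPKM with the KIAA1429 antibody, while SRP54-213 was listed at 8.32 FPKM in IgG RIP replicate 2 and at 0 in the other 3 libraries. All 2187 bases of SRP54-201 lie within SRP54-213, 94.0% of whose 2327 bases are shared. The gene was thus listed entirely under another transcript in 1 library.

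SRP9 showed the same exchange. SRP9-201 was listed at 18.1 and 28.2 FPKM with IgG and at 24.1 and 49.5 FPKM with the KIAA1429 antibody, and SRP9-203 at 32.2 and 0 FPKM and at 47.1 and 0 FPKM. The 2 transcripts share 1470 bases, 99.3% of SRP9-201. In both groups it was the second replicate that had SRP9-203 at 0. Short SRP9-204 was listed at 3.08 and 1.36 FPKM against 0.208 and 0 FPKM, without overlap. Of the 23375 transcripts tested, 14.5% were lower in KIAA1429 RIP without overlap. The unadjusted p of SRP9-204 was the lowest of the 19 SRP transcripts tested, but its adjusted p over all 23375 by limma was 0.879.

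SRP68-201, the longest SRP68 transcript, was lower in KIAA1429 RIP without overlap, at 25.7 and 23.8 FPKM against 19.7 and 17.5 FPKM. The share of all transcripts tested that were lower without overlap was 14.5%. SRP68-202, all of whose 2386 bases are shared with SRP68-201, was listed at 9.67 FPKM in KIAA1429 RIP replicate 1 and at 0 elsewhere. For SRP72, the 2 transcripts had overlapping groups although their sum did not, with SRP72-201 at 17.8 and 8.60 FPKM against 12.9 and 16.6 FPKM and SRP72-202 at 0.219 and 10.2 FPKM against 10.1 and 4.71 FPKM. Of the 20 transcripts, 19 passed the filter, and none was called or had an unadjusted p under 0.05. Among all transcripts tested, 0.0% were called in either direction, and 2.89% higher and 2.32% lower had an unadjusted p under 0.05 with a log2 fold change beyond 1.

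**Figure D4:**
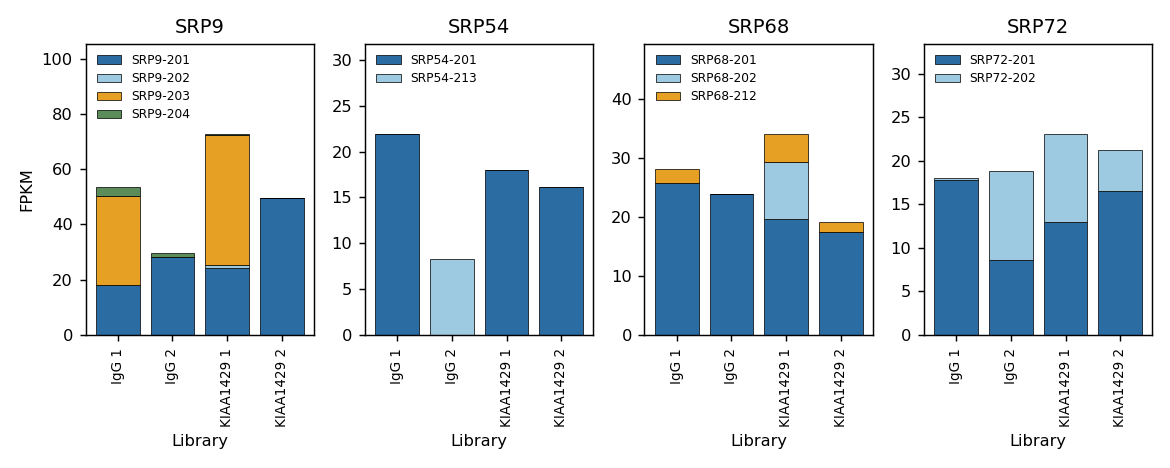
FPKM of the listed transcripts of SRP9, SRP54, SRP68 and SRP72, stacked to the gene total, 1 bar per library and a separate scale for each gene. SRP54 is listed as SRP54-213 alone in IgG RIP replicate 2 (8.32 FPKM) and as SRP54-201 alone in the other libraries, and SRP9-203 is present in both first replicates and at 0 in both second replicates.

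The remaining genes of the route from the ribosome into the membrane were counted in a list of 48 genes, all of them tested. None was called (0.0% of all gene totals were), and all adjusted p by limma lay between 0.993 and 0.998. The groups did not overlap in 22 of the 48 genes, 18 higher in KIAA1429 RIP (37.5%, against 16.6% of all gene totals) and 4 lower (8.33%, against 15.2%). The median log2 fold change was 0.32, against 0.02, and it was 0.17 without IgG RIP replicate 1. With all libraries scaled to the same FPKM sum the counts were 12 higher and 6 lower, and those over all gene totals turned from 1883 higher and 1729 lower to 1276 higher and 2444 lower. No test of the list was made, and the list was chosen with earlier results of these data known.

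In the translocon, 4 of 8 genes were higher without overlap and 1 was lower, against 16.6% and 15.2% of all gene totals. SEC61B and SEC61G, the small subunits of the channel, were listed at 34.2 and 47.2 against 96.1 and 76.7 FPKM and at 61.9 and 42.9 against 131 and 84.6 FPKM, with log2 fold changes of 1.08 and 1.02. SEC61A2 (0.98) and SEC63 (0.51) also had KIAA1429 RIP above IgG RIP, and TRAM2 (-0.34) had it below. SEC61A1, the main pore subunit, had overlapping groups (-0.09).

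Among the partners of the channel, 3 of 4 genes of the translocon-associated protein complex were higher without overlap, against 16.6% of all gene totals. SSR1 was listed at 21.3 and 20.7 against 42.5 and 34.7 FPKM (log2 fold change 0.84), followed by SSR4 (0.54) and SSR3 (0.33), while SSR2 overlapped (-0.07). Of the signal peptidase, which removes the signal peptide, 3 of 5 genes were higher (16.6% of all gene totals), SPCS1 at 25.2 and 26.1 against 41.9 and 45.9 FPKM (0.75), SPCS2 (0.42) and SEC11C (0.19). SEC11A overlapped (0.27). Of the 12 oligosaccharyltransferase genes, which attach N-glycans, MAGT1 (0.65) and KRTCAP2 (0.51) were higher and RPN1 (-0.23) was lower. These shares of 16.7% and 8.33% stood against 16.6% and 15.2% of all gene totals. TMEM258 (0.58) and the catalytic subunit STT3A (-0.25) overlapped.

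Of the nascent chain factors, which meet the chain at the ribosome, BTF3 was listed at 171 and 129 against 278 and 306 FPKM (log2 fold change 0.97). NACA overlapped (0.42), so 1 of 2 was higher without overlap, against 16.6% of all gene totals. In tail-anchored protein insertion, a route that does not use the particle, WRB, a receptor subunit, was higher (0.81). UBL4A (-0.34) and BAG6 (-0.19) were lower, with CAMLG overlapping (0.44). The shares of its 7 genes were 14.3% higher and 28.6% lower, against 16.6% and 15.2% of all gene totals. In the EMC, another insertase of the membrane, 4 of 10 genes were higher, against 16.6% of all gene totals: EMC8 (5.53 and 3.95 against 14.0 and 11.9 FPKM, 1.29), EMC2 (1.07), EMC3 (0.88) and EMC4 (0.16). EMC10 (-0.24) and MMGT1 (-0.21) overlapped. In all, 7 of the 48 genes had an unadjusted p under 0.05 by limma, against 522 of all 11361 gene totals. They were SEC61B, SEC61G, SSR1, SPCS1, BTF3, EMC2 and EMC8. Of these, 4 also had a log2 fold change beyond 1 (4 of 48, against 2.34% of all gene totals).

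**Figure D5:**
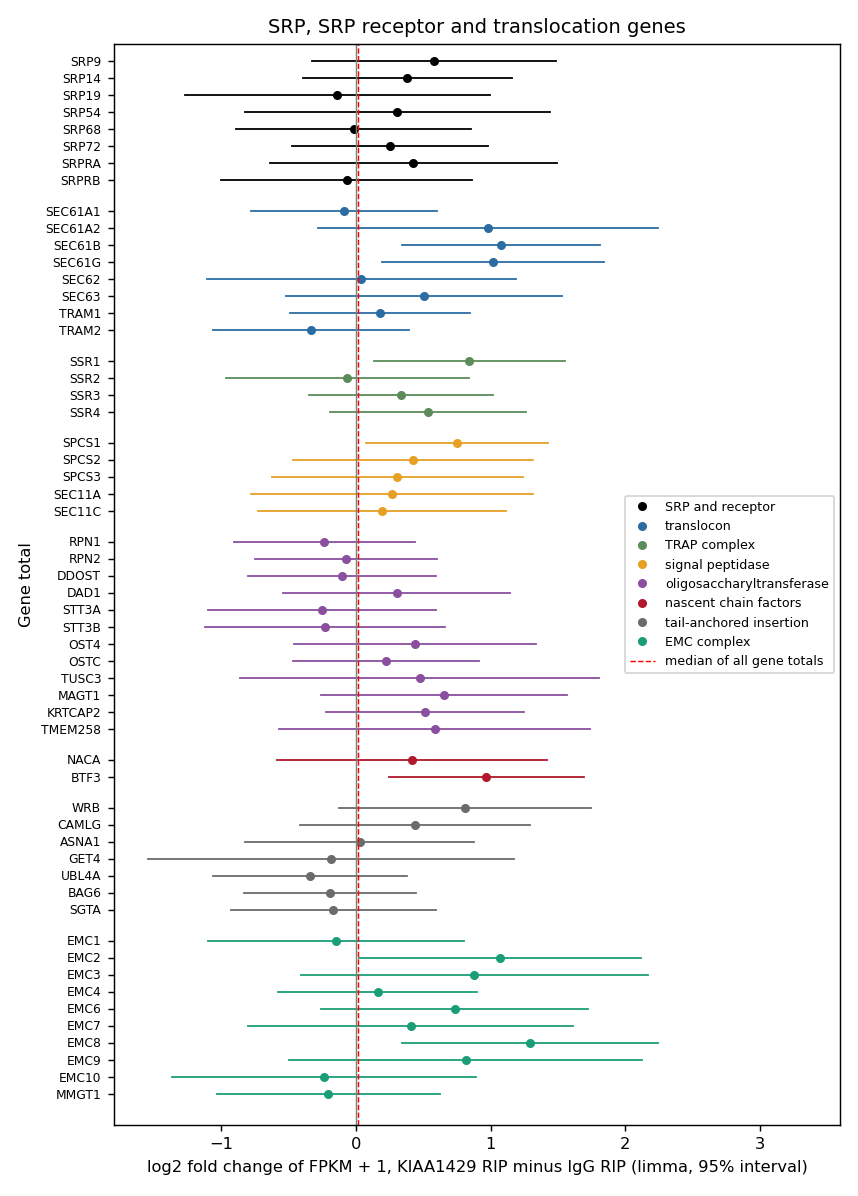
Log2 fold change of FPKM + 1 (KIAA1429 RIP minus IgG RIP) with its 95% interval from limma for the 8 SRP genes and the 48 genes of the list, coloured by role, with the median of all gene totals (0.02) dashed. All 8 SRP intervals include 0, and 7 of the 48 others do not, with no gene called after adjustment. Over all 11361 gene totals, 522 had an unadjusted p under 0.05 by limma.

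Transcript length moved with these values. Gene totals whose most abundant transcript had above 500 and up to 1000 bases had a median log2 fold change of 0.31, with 29% higher without overlap (n = 1168), while those above 4000 bases had a median of -0.08 and 9.44% (n = 3738). Across 11063 gene totals with a length, Spearman's rho of length and log2 fold change was -0.19, as a description over genes that share the same 4 libraries. Of the 9 SRP and list genes with 500 to 1000 bases, 5 were higher and 0 lower without overlap, against 29% and 10.6% of that class. Of the 9 with 1000 to 2000 bases, 3 were higher and 0 lower, against 22.8% and 10.8%. Of the 20 with 2000 to 4000 bases, 4 were higher and 3 lower, close to the 15.9% and 14.8% of all gene totals in that class. Of the 12 above 4000 bases, 4 were higher and 1 lower, against 9.44% and 19.3%. AL139099.5, at 300 bases, was in the shortest class, which had a median of 0.11 and 22.8% higher (n = 268). Of the 2 SRP and list genes in that class, 1 was higher and 0 lower without overlap, against 22.8% and 14.6%. The part of length in the values of AL139099.5 and of the list was not tested.

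The labelled cell line was checked against markers. Hepatocyte and hepatoma genes were listed in every library, among them AFP (99.1 to 128 FPKM), ALB (53.5 to 76.3 FPKM) and APOA1 (32.3 to 34.8 FPKM), as were KRT8, KRT18 and VIM, while HNF4A (0.305 to 1.11 FPKM), EPCAM (1.41 to 3.21 FPKM) and CDH2 (1.16 to 2.94 FPKM) were low. The blood, endothelial and fibroblast markers PTPRC, HBB, PECAM1 and COL1A1 were not listed. The FPKM sums ranged from 295573 to 340300, with both KIAA1429 RIP libraries above both IgG RIP libraries, and 26.6% to 32.2% of transcripts were listed at 0 in a library.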

How the data were processed

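RIP-seq was measured in HCCLM3 cells with 2 IgG RIP and 2 KIAA1429 RIP libraries, grouped and numbered as in the labels. The authors selected poly(A) RNA, made libraries from random hexamers and, per their methods, used HISAT2 for alignment to GRCh37/hg19, whereas the submitters' processing notes name Bowtie2 2.1.0. The deposited values are FPKM per transcript, normalized by the authors for length and mapped fragments. The tool that estimated FPKM and the annotation release are not given in the sources used here. Without counts, depth and counting precision are unknown.

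The files list the same transcripts in each library. FPKM were summed per gene name and tested by limma 3.58.1 (R 4.3.3) after a log2(FPKM + 1) transformation (empirical Bayes with trend, group as the only term, two-sided, Benjamini-Hochberg over all features with a mean of at least 1 FPKM). A call needed an adjusted p under 0.05 and a log2 fold change beyond 1, as in the study. The procedure was tested on simulated data, in which recovery of raised genes was required only at a spread smaller than the real one. AL139099.5 was given without a test. Its sequence was read from GRCh37 at the coordinates in the files and aligned locally with Biopython 1.88 to the GENCODE transcripts lifted to that build. Some stretches of this sequence are not reported here. RefSeq (GRCh38.p14) was used for neighbours only. The 9 genes and the lists were chosen with earlier results of these data known. Named were the 9 genes, list genes whose groups did not overlap or that had the 2 highest or lowest log2 fold changes of their role, the short noncoding RNAs of a list, the top 5 transcripts, those within 50000 bases of AL139099.5 and the 5 most like it. Alternatives changed the pseudocount (0.1, 0.01), the filter (none, 5 FPKM), the scaling, the trend, the replicate block, the transcripts summed and the libraries used.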

Additional observations from a re-analysis of the deposited data

How the results depend on the processing

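The log2 ratio of AL139099.5 lay between 0.88 and 1.01 without any 1 library, was 0.80 with each library scaled to the same FPKM sum and was 0 after quantile normalization, which gives the highest transcript of each library the same value by construction. Its mean share was 0.294% (IgG RIP) and 0.566% (KIAA1429 RIP) of mapped fragments, and 3.28% in IgG RIP over the transcripts that passed the filter. It ranged from 3.17% to 3.25% (IgG RIP) and from 5.34% to 5.80% (KIAA1429 RIP) without 1 library. Across all features, the alternatives of pseudocount, filter, scaling, trend, block and left-out library called no transcript and no gene total, apart from 12 higher and 1 lower gene totals with the replicate block, none of them among the 9 genes or the list of 48. The labels share only a number across the groups, and the deviations of same-numbered libraries correlated at 0.19 for gene totals and 0.03 for transcripts. With the block, adjusted p of the 8 SRP genes lay between 0.552 and 0.994.

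Signs changed for SRP19 with its most abundant transcript (0.17), and on leaving out a library for 5 genes, whose log2 fold changes ranged from -0.51 to 0.23 (SRP19), -0.34 to 0.96 (SRP54), -0.42 to 0.38 (SRP68), -0.088 to 0.94 (SRPRA) and -0.30 to 0.16 (SRPRB). The cause was not tested. The log2 fold change of SRP54 was 1.92 with its most abundant transcript, against 0.31 with its gene total. That transcript, SRP54-201, was listed at 0 in IgG RIP replicate 2. SRP9, SRP14 and SRP72 kept their sign in all 16 alternatives. Among these, the filters, the replicate block and the trend left each log2 fold change as it was, so they could not change a sign. Leaving out a library leaves 1 group with a single one, which is assumed to vary like the other group. With the FPKM sum equalised without AL139099.5, the list had 13 higher and 5 lower genes without overlap, and all gene totals 1395 and 2229. The small number of libraries and the unknown depth limit what these data can show of changes in the SRP genes.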
